A study of Rattus norvegicus with 8 samples.

Results

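The feedback inhibitors of the suppressor of cytokine signaling (SOCS) family and the signal transducers and activators of transcription (STAT) were followed in rat thymocytes exposed to a glucocorticoid. They comprised 9 genes, Cish, Socs1, Socs2, Socs3, Stat3, Stat4, Stat5a, Stat5b and Stat6, taken by the gene name that the array gives to each probe. These genes were read by 10 of the 41012 non-control probes of the array, and Stat3 was the only member with more than 1 probe. Thymocytes, the immature lymphocytes of the thymus, came from adrenalectomized male Sprague-Dawley rats, whose own supply of adrenal glucocorticoid had been removed, and the thymi of 3 rats were pooled for a preparation. The age of the rats was not given in the sources used here. The cells were cultured for 6 hours, either untreated (4 Control arrays) or in 100 nM dexamethasone, a synthetic agonist of the glucocorticoid receptor (4 Dex arrays). The methods state 3 biological replicates per group, so the 4 arrays of a group may not all be separate preparations, and p-values measure the spread between these arrays.

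In the JAK-STAT pathway a cytokine receptor activates Janus kinases (JAK), which phosphorylate STAT proteins. The phosphorylated STAT dimers enter the nucleus and switch on target genes, and SOCS genes are among these targets. SOCS proteins bind the activated receptors or kinases, block further signaling and direct their partners to degradation, which closes a negative feedback loop. In the thymus this pathway carries the interleukin 7 signal for survival and growth of immature T cells, mainly through STAT5, and Socs1 restrains the response of thymocytes to cytokines.

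Between 24908 and 34472 probes per array stood well above background, with Dex 2 (24908), Dex 1 (26471) and Control 1 (28665) the lowest. Dex 1 and Dex 2 also stood apart from Dex 3 and Dex 4 in their values, and the absolute difference between the means of these pairs of arrays had a median of 0.71 on the log2 scale over all probes. The median SD over all probes was 0.28 among Control arrays and 0.50 among Dex arrays. Control 1 shared a slide with Dex 3, the other Control arrays shared a slide, and Dex 1, Dex 2 and Dex 4 shared the remaining slide. The known glucocorticoid-induced genes Tsc22d3 (log2 fold change 3.59, limma adjusted p = 0.000153) and Fkbp5 (1.73, adjusted p = 0.00133) were higher in Dex, while Per1 (0.73, adjusted p = 0.270) did not pass the test. The thymocyte label was checked against the surface and recombination genes of T cell precursors, and all 13 thymocyte markers on the array were well above background on all 8 arrays, with 0 called. Their median log2 fold change was -0.13, and single markers lay on both sides of 0, from -0.70 for Cd5 (limma adjusted p = 0.197) to 0.52 for Cd8b (adjusted p = 0.326, without Control 1, where its value is missing). The summed normalized signal of the 12 thymocyte markers measured on every array was 314100 to 347000 in Control and 247100 to 348200 in Dex.

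The 4 SOCS genes each rested on a single 60-base probe, printed here because every value for these genes was read from these bases. The positions are those of genome build rn3 that the array design gives, chr10:4820384-4820443 on the plus strand for Socs1, chr8:112564036-112564095 on the plus strand for Cish, chr7:32626098-32626157 on the minus strand for Socs2 and chr10:107973207-107973266 on the minus strand for Socs3. In the best ungapped alignment of any member probes, 27 bases were identical, between Socs1 and Stat5b.
Socs1: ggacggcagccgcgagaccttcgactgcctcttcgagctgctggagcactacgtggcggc
Cish: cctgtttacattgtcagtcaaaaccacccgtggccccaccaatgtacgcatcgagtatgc
Socs2: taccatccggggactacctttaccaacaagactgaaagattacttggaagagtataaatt
Socs3: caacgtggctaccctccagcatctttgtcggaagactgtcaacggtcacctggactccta

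The 250 bases upstream of the transcript start are shown for Socs1 and Cish, the members whose upstream sequence held the palindrome TTCNNNGAA that STAT dimers bind. The sequences are those of RefSeq in build GRCr8, where 8 of the 9 members had an entry and Socs2 had none, and the capitals mark each palindrome. Both lie on the plus strand, at chr10:5389324-5389573 for Socs1 and chr8:116850719-116850968 for Cish.
Socs1: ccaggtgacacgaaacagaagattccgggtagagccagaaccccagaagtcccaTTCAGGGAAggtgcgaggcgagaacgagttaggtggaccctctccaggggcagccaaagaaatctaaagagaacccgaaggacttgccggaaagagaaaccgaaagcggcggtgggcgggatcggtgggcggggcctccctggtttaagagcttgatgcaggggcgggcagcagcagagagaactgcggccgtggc
Cish: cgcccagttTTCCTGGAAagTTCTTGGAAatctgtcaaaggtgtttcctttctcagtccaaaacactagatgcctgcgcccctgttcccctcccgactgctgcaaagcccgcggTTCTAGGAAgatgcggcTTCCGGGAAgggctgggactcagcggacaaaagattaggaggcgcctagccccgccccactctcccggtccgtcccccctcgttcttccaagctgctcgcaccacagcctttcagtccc

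The Socs1 sequence held 1 palindrome, which began at base -196 from the start of the transcript. The Cish sequence held 4, beginning at bases -241, -230, -136 and -119. The pattern TTCNNNGAA, where N is any base, reads the same on both strands, although the N bases of the marked sites do not. The pattern was found in 7.67% of the 33469 upstream sequences of this length. The hexamer AGAACA, the core of the glucocorticoid response element, was searched on both strands and was found in 17.5% of these sequences. Among the 8 members with an entry it was found upstream of Stat4 alone, at base -81. These matches are descriptions of letters in this window, and binding was not measured.

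Socs1, which inhibits the Janus kinases directly, was the single member that limma called, and it was higher in Dex. Its normalized log2 signal was 10.15, 10.24, 10.35 and 10.27 on Control arrays 1 to 4. It was 11.30, 11.35, 11.24 and 11.60 on Dex arrays 1 to 4. Every Dex array lay above every Control array, and the arrays of each group lay close together, with Dex 4 the highest. The means were 10.25 ± 0.081 in Control and 11.37 ± 0.16 in Dex (SD, n = 4), a log2 fold change of 1.12 (SE 0.15, 95% interval 0.78 to 1.46) or a 2.18-fold higher level (1.72 to 2.76). limma gave an adjusted p of 0.0165 over all probes. In the exact two-sided permutation test the difference of the means had p = 0.0286, the smallest value that 4 arrays against 4 can give. On the slide that Control 1 and Dex 3 shared, Dex was higher by 1.09.

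Across all probes limma called 0.778% in either direction and 0.563% as higher in Dex, against 1 of the 10 member probes. At an unadjusted p below 0.05 the shares were 10.6% of all probes and again 1 of 10 member probes. The groups did not overlap for 9.10% of all probes and for the Socs1 probe among the members. At the thresholds named in the methods, an unadjusted limma p of at most 0.01 with a fold change of at least 1.2, 3.88% of all probes and the Socs1 probe passed. With the replicate number as a block 0.198% of all probes and 0 of the 10 member probes were called, and the Socs1 adjusted p was 0.121 with its log2 fold change at 1.12. The call was also lost when any Control array or Dex 1 was left out, at adjusted p-values of 0.0621 to 0.0869, and kept without Dex 2, Dex 3 or Dex 4, with adjusted p-values of 0.0385 to 0.0497.

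**Figure D1:**
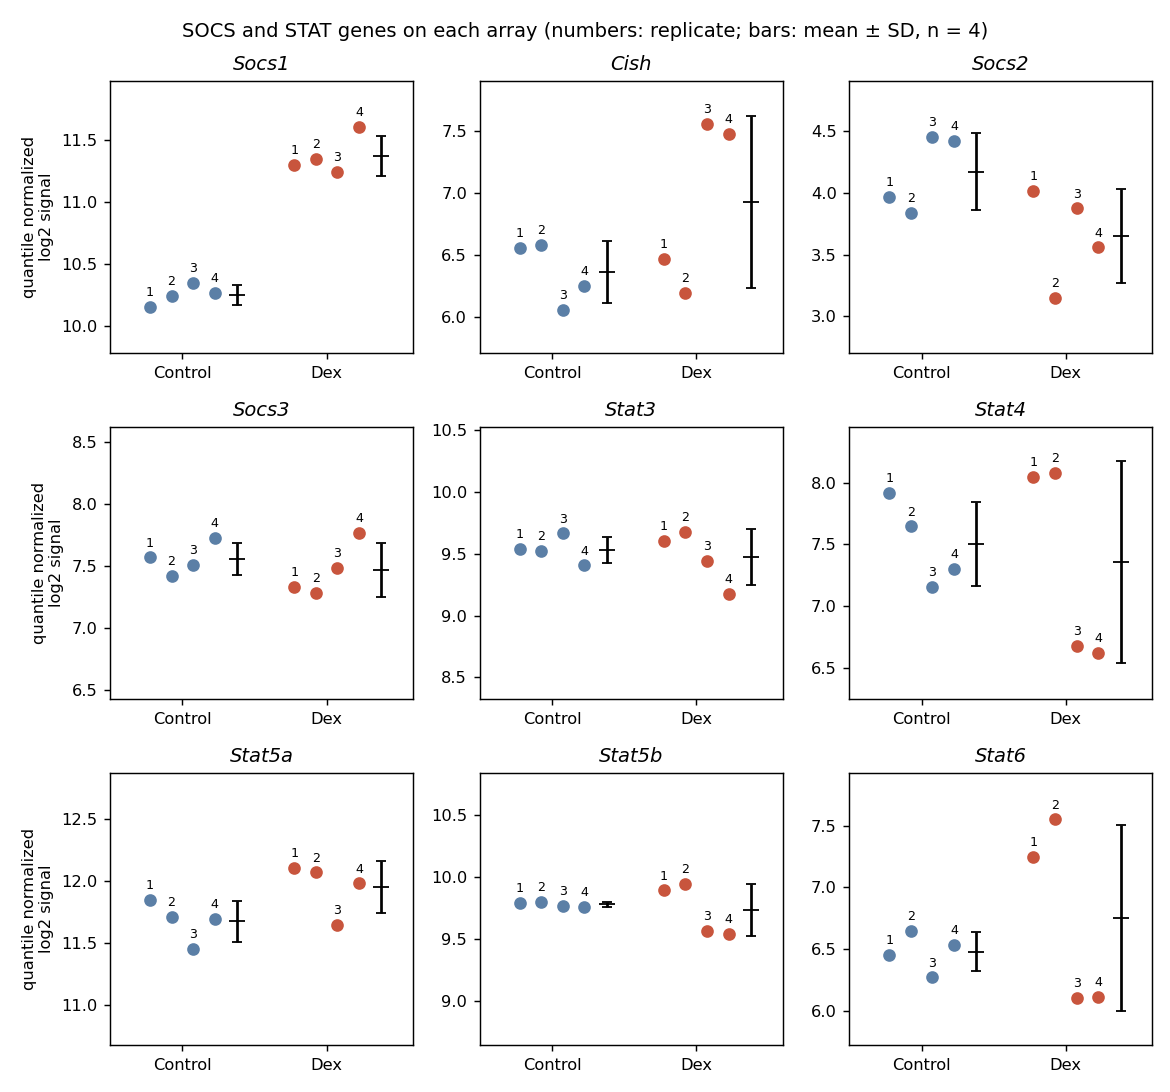
Quantile normalized log2 signal of the probe with the highest mean signal for each of the 9 genes, on the 4 Control arrays (blue) and the 4 Dex arrays (red), numbered by replicate, with the mean and SD as bars (n = 4). All panels span the same range of log2 signal, and for Socs1 all Dex arrays lie above all Control arrays, while for Cish, Stat4 and Stat6 Dex 1 and Dex 2 lie apart from Dex 3 and Dex 4.

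**Figure D2:**
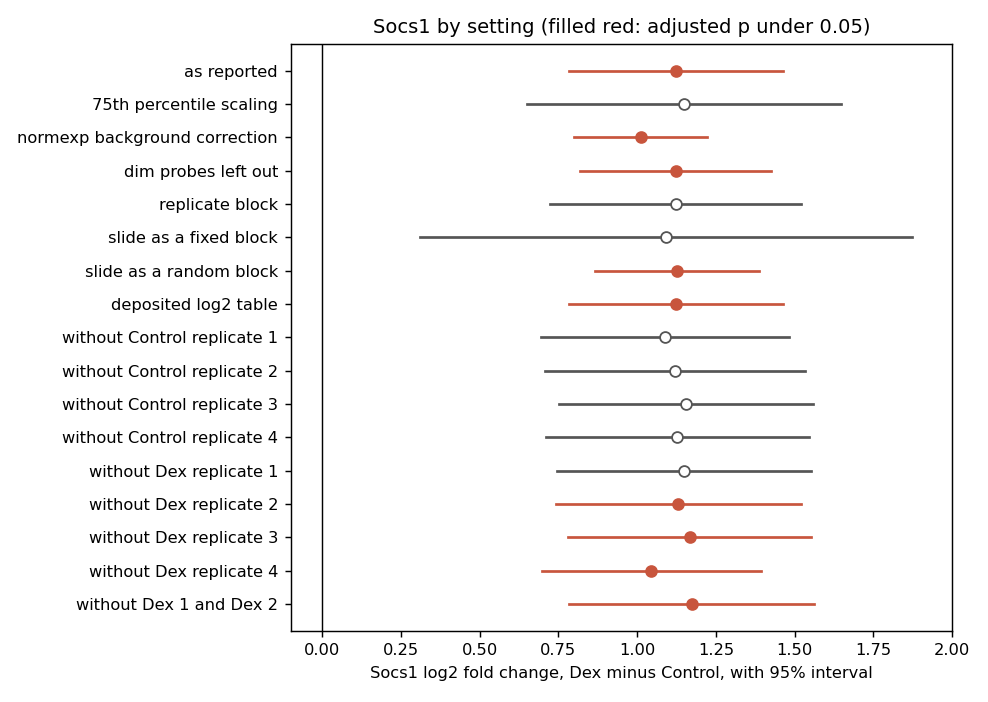
Log2 fold change of Socs1 (Dex minus Control, horizontal axis) with its 95% interval under each processing setting and with each array left out. The value stays between 1.01 and 1.17 in all settings plotted, while the adjusted p lies on both sides of 0.05 (filled red symbols, below 0.05).

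Cish, the SOCS family member that is a classical STAT5 target and binds cytokine receptors, split the Dex arrays. Its log2 signal was 6.56, 6.58, 6.06 and 6.25 on Control arrays 1 to 4. It was 6.47, 6.20, 7.56 and 7.48 on Dex arrays 1 to 4. Dex 3 and Dex 4 lay above all Control arrays, and Dex 1 and Dex 2 lay within the range of the Control arrays. The log2 fold change over all arrays was 0.56 (95% interval -0.22 to 1.35, limma adjusted p = 0.643). Within replicate numbers 1 to 4 the differences were -0.092, -0.38, 1.50 and 1.23, and on the shared slide Dex 3 lay 1.00 above Control 1. Without Dex 1 and Dex 2, an alternative chosen after seeing the data, the log2 fold change was 1.16. Since the arrays left out are those with the low Cish values, this number describes Dex 3 and Dex 4 and is no test of Cish.

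Socs2, a feedback inhibitor best known for restraining growth hormone signaling, had a weak signal. Its log2 values were 3.97, 3.84, 4.45 and 4.42 on Control arrays 1 to 4. They were 4.02, 3.15, 3.87 and 3.56 on Dex arrays 1 to 4. The probe was well above background on all 4 Control arrays and on 2 of the 4 Dex arrays, Dex 3 and Dex 4, and the groups overlapped through Dex 1 and Dex 3. The log2 fold change was -0.52 (95% interval -1.09 to 0.05, limma adjusted p = 0.523), and the difference was negative in replicates 2, 3 and 4 and 0.049 in replicate 1.

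Socs3, which restrains signaling through gp130 receptors such as that of interleukin 6, had overlapping values in both groups. Its log2 signal was 7.57, 7.42, 7.51 and 7.73 on Control arrays 1 to 4 and 7.34, 7.28, 7.48 and 7.77 on Dex arrays 1 to 4. Dex 1 and Dex 2 lay below all Control arrays, Dex 3 within their range and Dex 4 above them. The log2 fold change was -0.09 (95% interval -0.47 to 0.29, limma adjusted p = 0.895). The interval leaves out a change of the size seen for Socs1 in either direction.

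None of the 5 STAT genes passed the test. Stat5a and Stat5b, the near-identical transducers of the interleukin 2 and interleukin 7 receptors, are encoded next to each other and to Stat3 on chromosome 10. In build rn3 the Stat5a probe, at chr10:89833979-89834038 on the plus strand, ended 1477 bases before the Stat3 probe with the higher signal, which is on the minus strand. The Stat5b probe lay at chr10:89736579-89736638 on the minus strand.

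Stat5a had a log2 signal of 11.85, 11.71, 11.45 and 11.70 on Control arrays 1 to 4. On Dex arrays 1 to 4 it was 12.10, 12.07, 11.64 and 11.98. Dex 1, Dex 2 and Dex 4 lay above all Control arrays, and Dex 3 lay below Control 1, Control 2 and Control 4. The log2 fold change was 0.27 (95% interval -0.12 to 0.67, limma adjusted p = 0.656), and the exact two-sided permutation test gave p = 0.114. Within replicate numbers all 4 differences were positive, at 0.25, 0.36, 0.19 and 0.29, while on the shared slide Dex 3 lay below Control 1 by a difference of -0.21. The direction thus depended on which arrays were set against each other.

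Stat5b was the member with the tightest Control arrays. Its log2 signal was 9.79, 9.79, 9.76 and 9.76 on Control arrays 1 to 4, an SD of 0.018. On Dex arrays 1 to 4 it was 9.89, 9.94, 9.57 and 9.54, an SD of 0.21. Dex 1 and Dex 2 lay above all Control arrays and Dex 3 and Dex 4 below them, so that the means of the groups differed by a log2 fold change of only -0.04 (95% interval -0.40 to 0.32, limma adjusted p = 0.951).

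Stat4, which transmits the interleukin 12 signal, had log2 values of 7.91, 7.65, 7.15 and 7.30 on Control arrays 1 to 4. On Dex arrays 1 to 4 they were 8.05, 8.08, 6.68 and 6.62. All Control arrays lay between Dex 1 and Dex 2 above and Dex 3 and Dex 4 below. The log2 fold change was -0.15 (95% interval -1.07 to 0.77, limma adjusted p = 0.929), the widest interval of the members.

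Stat6, which transmits the interleukin 4 signal, showed the same order. Its log2 signal was 6.46, 6.65, 6.27 and 6.54 on Control arrays 1 to 4 and 7.25, 7.55, 6.11 and 6.12 on Dex arrays 1 to 4. Dex 1 and Dex 2 lay above all Control arrays, and Dex 3 and Dex 4 below them. The log2 fold change was 0.28 (95% interval -0.54 to 1.09, limma adjusted p = 0.842).

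Stat3, the transducer of interleukin 6 family cytokines, was read by a probe printed 10 times and by a second probe printed once. The probe printed 10 times had log2 values of 9.41 to 9.66 in Control and 9.17 to 9.68 in Dex, and a log2 fold change of -0.06 (95% interval -0.44 to 0.32, limma adjusted p = 0.931). The probe printed once had values of 8.65 to 9.12 in Control and 8.48 to 9.21 in Dex, and a log2 fold change of 0.05 (95% interval -0.46 to 0.56, adjusted p = 0.961). The probes thus differed in sign and neither differed between the groups beyond the spread between arrays.

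**Figure D3:**
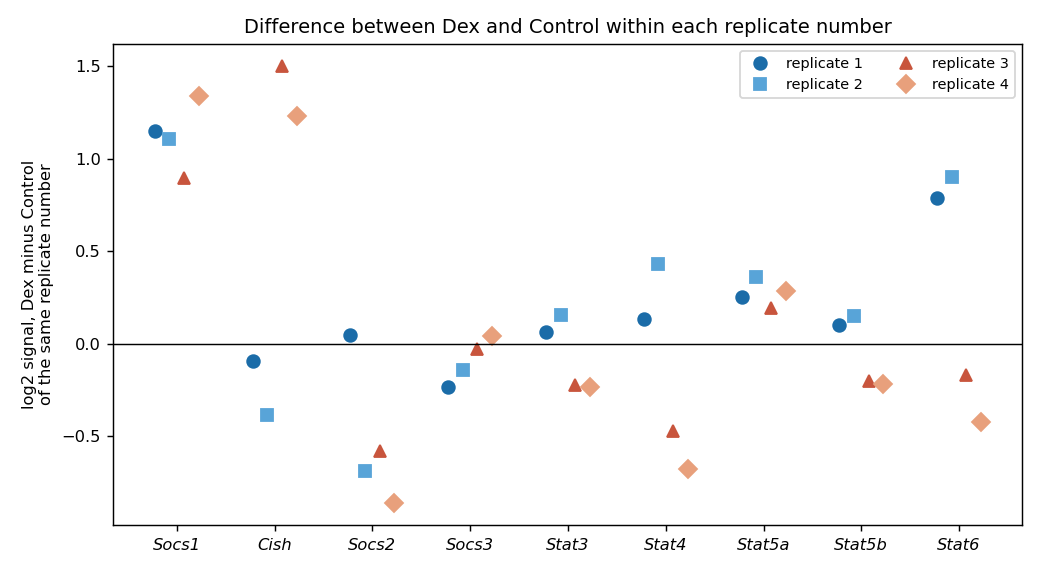
Difference in log2 signal between the Dex and the Control array of the same replicate number, for the probe with the highest mean signal of each gene, with 1 symbol per replicate number and 0 as a line. Replicates 1 and 2 (blue) and replicates 3 and 4 (red) lie on opposite sides of 0 for Cish, Stat3, Stat4, Stat5b and Stat6, and all replicates lie above 0 for Socs1 and Stat5a.

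The split of the Dex arrays therefore ran through several members and in both directions. The mean of Dex 3 and Dex 4 minus the mean of Dex 1 and Dex 2 was 1.19 for Cish, 0.32 for Socs3, 0.13 for Socs2 and 0.10 for Socs1. It was -1.41 for Stat4, -1.29 for Stat6, -0.36 for Stat5b, -0.33 for the Stat3 probe printed 10 times and -0.27 for Stat5a. These differences describe 4 arrays and carry no test. Over all probes the median of this difference was -0.19, and 35.9% of the probes differed by more than 1 in either direction. Dex 4 shared its slide with Dex 1 and Dex 2 and lay nearer to Dex 3 than to them for Cish, Socs3, Stat3, Stat4, Stat5b and Stat6, and nearer to their mean for Socs1, Socs2 and Stat5a. The number of probes above background moved with the split, and markers of several cell types differed between these pairs of arrays. The difference was negative for 11 of 13 thymocyte markers (median -0.40, from -1.07 for Cd2 to 0.32 for Tcf7) and for all 3 granulocyte, all 3 B cell and both erythroid markers. Of the thymocyte markers 1 of 13 differed by more than 1, against 35.9% of all probes. The median over all probes was itself negative, so these signs alone do not set the markers apart from other probes. Of the macrophage and dendritic cell markers 3 of 9 were positive (-1.12 for C1qa to 1.17 for C1qc), and of the stromal and epithelial markers 3 of 7 (-1.39 for Dcn to 1.49 for Col1a1). The part of these measures in the member values was not tested. The SD among Dex arrays exceeded that among Control arrays for all 9 members, compared with 75.4% of all probes.

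**Figure D4:**
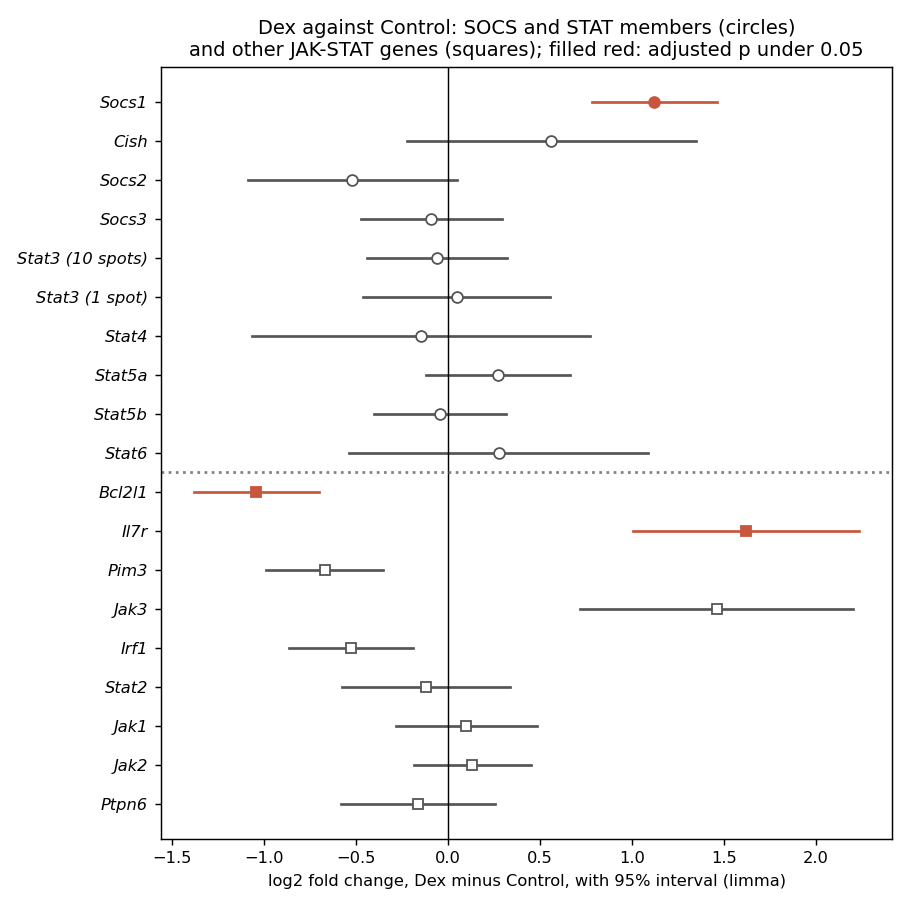
Log2 fold change (Dex minus Control, horizontal axis) with the 95% interval from limma for all 10 member probes (circles) and for the named genes of the JAK-STAT list (squares), on 4 arrays per group. Filled red symbols have an adjusted p below 0.05, which holds for Socs1, Bcl2l1 and Il7r, and the intervals of the other members include 0.

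Over the 9 members, 4 had a positive and 5 a negative log2 fold change, with a median of -0.04, against 0.00033 over all probes. Outside Socs1 the largest absolute log2 fold change was 0.56, that of Cish.

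The rest of the JAK-STAT pathway was described by 65 listed genes, of which 57 were on the array, each by its probe with the highest mean signal. limma called 1 as higher and 1 as lower, or 3.51% against 0.778% of all probes, and 15 had an unadjusted p below 0.05, or 26.3% against 10.6%. The groups did not overlap for 9 genes with higher and 9 with lower values in Dex, or 31.6% against 9.10% of all probes. The median log2 fold change was -0.05. The list was chosen with earlier results of these data known. It takes the probe with the highest mean signal per gene, and 48 of 57 were well above background on all 8 arrays. With dim probes left out, 562 of the 28476 remaining probes were called. The counts are therefore a description of the list and no test of the pathway.

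Among the 25 receptor chains on the array Il7r, the alpha chain of the interleukin 7 receptor, rose. Its log2 signal was 5.08, 4.90, 5.06 and 5.18 on Control arrays 1 to 4 and 7.20, 7.08, 6.21 and 6.21 on Dex arrays 1 to 4. All Dex arrays lay above all Control arrays, with a log2 fold change of 1.62 and a limma adjusted p of 0.0410, or 0.160 with the replicate block.

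Of the Janus kinases 3 were on the array and Tyk2 was not matched. Jak3, the kinase bound to the common gamma chain of the interleukin 2 and interleukin 7 receptors, had log2 values of 10.25, 10.21, 11.18 and 10.96 on Control arrays 1 to 4 and 11.58, 11.82, 12.58 and 12.46 on Dex arrays 1 to 4. The groups did not overlap, and the log2 fold change was 1.46 (95% interval 0.72 to 2.20), but the limma adjusted p was 0.114, or 0.0620 with the replicate block. Jak1 (log2 fold change 0.10, 95% interval -0.28 to 0.48) and Jak2 (0.13, -0.19 to 0.45), the kinases of many other cytokine receptors, did not pass the test.

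Of the remaining family genes Stat2, a transducer of the interferon signal, had a log2 fold change of -0.12 (95% interval -0.57 to 0.34) and did not pass the test. Of 9 other inhibitors none was called, against 0.778% of all probes. An unadjusted limma p below 0.05 was found for 3, or 33.3% against 10.6% of all probes. The groups did not overlap for 3 with higher and 2 with lower values in Dex, or 55.6% against 9.10%. These shares describe a short, chosen list and are no test. Ptpn6, the phosphatase SHP-1, had a log2 fold change of -0.16 (95% interval -0.58 to 0.26).

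Among the 14 STAT target genes on the array Bcl2l1, which encodes the survival protein Bcl-xL, fell. Its log2 signal was 12.70, 12.92, 12.92 and 12.84 on Control arrays 1 to 4 and 11.91, 11.91, 11.60 and 11.79 on Dex arrays 1 to 4. The groups did not overlap, with a log2 fold change of -1.04 and a limma adjusted p of 0.0232, or 0.148 with the replicate block. The other probes of Bcl2l1 gave -0.59, -0.76 and 0.54, and none of them was called. Pim3, a kinase that promotes survival, and Irf1, an interferon-responsive transcription factor, had log2 fold changes of -0.67 and -0.53, with adjusted p-values of 0.0923 and 0.215, and did not pass the test although their groups did not overlap. The targets as a whole had a median log2 fold change of -0.17.

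**Figure D5:**
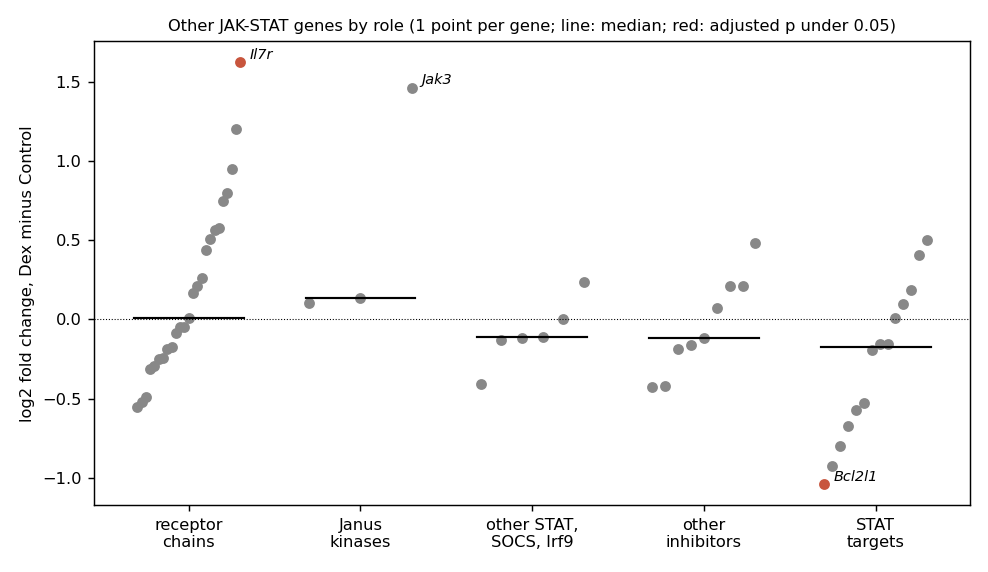
Log2 fold change (Dex minus Control, vertical axis) of the 57 JAK-STAT genes on the array that are no members, 1 point per gene, grouped by role, with the median of each role as a line. Il7r and Bcl2l1 (red) are the genes with an adjusted p below 0.05, and Jak3 lies at 1.46 with an adjusted p of 0.114.

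The genes whose pattern was most like that of Socs1 over the 8 arrays were Vegfa (Pearson r = 0.990), Nfkbia (0.990) and Vmp (0.988), out of 8942 genes well above background on all arrays. The 8 points of each correlation share the arrays and the difference between the groups, and 213 genes had an r above 0.9. Vegfa, a growth factor for blood vessels, was higher in Dex by 1.05 on the log2 scale (limma adjusted p = 0.0312). Nfkbia, the inhibitor of NF-kappaB, had a log2 fold change of 1.41 (adjusted p = 0.00643), and Vmp had one of 2.34 (adjusted p = 0.00570).

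Markers of other cells that a thymus suspension can hold were also measured. For macrophages and dendritic cells 9 markers were on the array, all well above background on all 8 arrays, with a summed signal of 4449 to 6124 in Control and 4311 to 8737 in Dex and 0 called. Their median log2 fold change was 0.21, and single markers ranged from -0.77 for Cd14 to 2.12 for Mrc1 (limma adjusted p = 0.0870). For B cells 3 were on the array and 1 of them was above background on all 8 arrays, with sums of 74.3 to 131.9 in Control and 74.2 to 150.3 in Dex. For stromal and epithelial cells 7 were on the array, with sums of 833 to 1242 in Control and 725 to 1649 in Dex. Their median log2 fold change was 0.57, from -0.76 for Col1a2 to 1.36 for the endothelial gene Pecam1. Pecam1 was the 1 called (limma adjusted p = 0.0208), and the fibroblast gene Dcn was not well above background on any array. The granulocyte sums were 2843 to 6163 and 2552 to 6977, and the erythroid sums 248 to 1286 and 246 to 2282, with 0 called in either list. The part of such cells in the levels of the SOCS and STAT genes was not tested, and more cells of a type cannot be told apart from more RNA per cell.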

How the data were processed

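Per the labels, total RNA was labeled with Cy3 and hybridized to 1-color Agilent Whole Rat Genome arrays. The authors extracted spot intensity values with Agilent Feature Extraction (version 9.5.3.1), which subtracts background. The deposited files also hold the software's other spot flags, as 0 or 1. A further deposited table gives log2 values after quantile normalization and median polish over the spots of a probe. These steps were repeated from the intensities of 43379 non-control spots per array, without spots flagged as outliers (16 missing values), and the results correlated with the deposited table at r = 0.999999 or more. A value is therefore relative to the other probes of its array.

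Groups and replicate numbers came from the labels. limma (version 3.58.1, R version 4.3.3) fitted all 41012 probes on 4 Control and 4 Dex arrays without a block, two-sided, with Benjamini-Hochberg adjustment and a threshold of 0.05. The calculation was tested on simulated data with independent arrays and the same SD in both groups. This simulation does not tell whether the calls hold for the arrays used here. All member probes were counted, and the probe with the highest mean stands for a gene. From the JAK-STAT list, called genes, those of lowest p up to 5 in all, and Stat2, the Janus kinases and Ptpn6 were named; a further gene of this rule is not reported here. Likeness took the 3 genes with the highest r to a called member. The members and lists were chosen with earlier results of these data known. Of the 10 member probes 8 had an accession in the reference table of rat genes.

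Deviations from the group means correlated between arrays of the same replicate number at 0.40, 0.13, 0.55 and 0.18 for numbers 1 to 4. Each lay above 0.1, so a paired fit, an alternative to the unpaired one above, is given wherever it changes a call, although arrays of another number reached 0.40, 0.19, 0.39 and 0.070. No p-value of the methods' signal to noise statistic was computed. Depth on arrays is limited by signal over background and by the number of arrays.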

Additional observations from a re-analysis of the deposited data

Results flagged for a closer look

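Jak1 on Control 1 had a log2 signal of 10.65, below the other Control arrays at 11.02 to 11.06. This gap took up 0.903 of the range of the group, more than Dixon's critical value for 4 samples allows. Among the 40 groups of 4 arrays tested over the members and the named pathway genes it was the 1 so far from the others, where chance gives about 1 in 20.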

How the results depend on the processing

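Socs1 kept its direction in all 16 alternatives, with adjusted p-values of 0.00166 to 0.771. Its call was lost with 75th percentile scaling (log2 fold change 1.15, adjusted p = 0.0982), with the replicate block (1.12, adjusted p = 0.121) and with the slide as a fixed block (1.09, adjusted p = 0.771), where a single slide holds both groups. Leaving out 1 array gave 1.05 to 1.17, with the call lost in 5 of 8 cases. The number of called member probes went from 1 to 0 under those 3 settings, to 0 to 1 with 1 array left out, and to 2 without Dex 1 and Dex 2, chosen after seeing the data, where the second was Cish, whose low Dex values lay on the arrays left out. Called pathway genes went from 2 to 1 with 75th percentile scaling, 6 with normexp background correction, 3 with dim probes left out, 0 with the replicate block or the fixed slide block, 8 with the slide as a random block, 8 without Dex 1 and Dex 2, and 0 to 1 with 1 array left out. Over all probes the count went from 319 to 166 with 75th percentile scaling, 915 with normexp, 562 with dim probes left out, 81 with the replicate block, 1 and 1840 with the slide as a fixed and a random block, 7143 without Dex 1 and Dex 2, and to 96 (without Control 4) to 249 (without Dex 3) with 1 array left out. The random block estimated a correlation of -0.24 within slides. A negative value narrows the intervals of differences between slides, so its higher counts do not make the calls firmer.

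Among members that were not called, the sign turned for Socs3 (0.068 without Dex 1 and Dex 2), Stat4 (0.034 with the random slide block, but -1.23 with the fixed slide block and -0.85 without Dex 1 and Dex 2), Stat5a (-0.21 with the fixed slide block), Stat5b (0.0097 with 75th percentile scaling) and Stat6 (-0.35 with the fixed slide block and -0.37 without Dex 1 and Dex 2). Dex 1 and Dex 2 were left out after seeing the data. They hold the highest Dex values of Stat4 and Stat6 and the lowest of Socs3. The numbers without them describe the remaining Dex arrays and are no test of these genes. Without a change of sign, Socs2 went to -0.059 with normexp and -0.095 with the fixed slide block, and Cish to 0.32 and 1.00. With 1 array left out the range was -0.13 to 0.041 for Stat3, -0.39 to 0.10 for Stat4, -0.11 to 0.023 for Stat5b, 0.011 (without Dex 2) to 0.49 (without Dex 3) for Stat6, 0.35 (without Dex 3) to 0.81 (without Dex 2) for Cish and -0.19 to -0.029 for Socs3. The replicate block changed no call of a member other than Socs1. The cause of these changes was not tested. The Socs2 probe was not well above background on 2 Dex arrays.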
